A study of Mus musculus with 24 samples.

Results

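The PYHIN gene cluster is a run of interferon-inducible genes on mouse chromosome 1. Its members here were Ifi203, Ifi204, Ifi205, Ifi206, Ifi207, Ifi208, Ifi209, Ifi211, Ifi213 and Mndal. They were matched by symbol, a rule that uses no measured value, and each of the 10 symbols matched exactly 1 of the 54532 genes in the table. To follow these genes through STING activation, polyA RNA from 24 libraries was examined, 12 of bone marrow-derived macrophages (BMDMs, grown in medium conditioned by L929 cells) and 12 of dendritic cells (BMDCs, raised from bone marrow in GM-CSF plus IL-4). STING, encoded by Tmem173, is the adaptor through which cytosolic DNA triggers type I interferon. DMXAA is a small molecule that activates mouse STING.

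Each cell type had 4 groups of 3 libraries. The groups labelled WT came from Tmem173 fl/fl mice, and the groups labelled CRE from Tmem173 fl/fl mice that also carried Lyz2-Cre ert2, a Cre recombinase that Lyz2 drives in myeloid cells and that tamoxifen switches on. Mice of both genotypes were on the C57BL/6N background and had received tamoxifen, so the floxed allele and the drug were shared by every group. Control cells received no agonist and treated cells received DMXAA, at 40 µM per the series' design text. The methods give its doses in mass per volume, so the concentration is uncertain, and neither the length of the treatment nor the age of the mice that gave these cells is given for these libraries. The labels do not say whether the 3 libraries of a group were separate mice or cultures, so the p-values measure the spread between these libraries, which may be technical.

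PYHIN proteins pair an N-terminal pyrin domain, which binds other pyrin domains, with C-terminal HIN domains that bind double-stranded DNA, although some members lack one of these parts. Ifi204 encodes p204, a DNA-binding protein placed upstream of STING and often compared with human IFI16. Aim2, a relative beside the cluster, senses cytosolic DNA and builds an inflammasome. Type I interferon induces many genes, PYHIN genes among them, through the factor ISGF3, which binds interferon-stimulated response elements (ISREs) in promoters.

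Facts about the whole series bear on these values as follows. Library totals ran from 16470157 to 18912887 counts in BMDMs and from 15657347 to 18080027 in BMDCs. The 4 BMDM libraries numbered 3, 1 in each group, did not show the labelled cell type. Summed over 6 leukocyte markers they held 0.556 to 1.92 CPM (counts scaled to the library total), against 3135 to 4151 CPM in the other 8 BMDM libraries. Over 8 macrophage markers they held 42.5 to 71.6 CPM against 9535 to 21321 CPM, and over 8 fibroblast markers 12915 to 19338 CPM against 29.5 to 464 CPM. They are therefore described apart, and BMDM groups have 2 libraries below unless stated. The 2 WT-labelled BMDM libraries numbered 2 held 454 to 464 CPM of fibroblast markers, against 29.5 to 61.1 CPM in the other 6. In BMDCs, the 2 CRE-labelled libraries numbered 2 held 129.5 to 305.5 CPM of 7 neutrophil markers against 7.13 to 20.5 CPM in the other 10, and 2064 to 2197 CPM of macrophage markers against 6083 to 9113 CPM. The Tmem173 transcript did not separate the labels clearly in controls or in treated BMDCs, where the libraries of the labels overlapped. In DMXAA-treated BMDMs it did, at 22.8 to 31.8 FPKM in WT and 9.12 to 10.1 in CRE libraries. Such a lack of overlap held there for 33.1% of all genes tested. The mean FPKM of Tmem173 (fragments per kilobase of gene, scaled to library size) was 12.3 in WT and 9.60 in CRE control BMDMs (n = 2). It was 27.3 and 9.63 in treated BMDMs (n = 2). In control BMDCs it was 38.5 ± 11.8 in WT and 28.3 ± 8.59 in CRE cells (SD, n = 3). Counts over the whole gene do not show whether the floxed part was removed, so groups are named by their labels.

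On the genome, the 10 members lie between positions 173468485 and 174031810 of chromosome 1 in GRCm38, in the order Ifi206, Ifi213, Ifi209, Ifi208, Ifi207, Ifi204, Mndal, Ifi211, Ifi203 and Ifi205. Ifi208 and Ifi209 are on the plus strand and the other 8 on the minus strand. The span annotated as Mndal, 173849126 to 173942491, contains Ifi211 at 173896345 to 173913046 and overlaps Ifi203 at 173920407 to 173942672. The members were examined for letters that interferon-driven promoters carry, in RefSeq windows of GRCm38.p6 from 250 bases before to 50 after each start site. A window was present for 9 of the 10 members, Ifi204 being the member without one. The ISRE letters, GAAA followed after any 2 bases by GAAA again, occurred on either strand in the windows of 8 of these 9 members, against 3.44% of all 32851 windows of that length. The letters TTCNNNGAA, known as a GAS element, occurred in 0 of 9 against 8.3% of all windows, and a kB site, GGGA followed after any 1 base by TTTCC, in 0 of 9 against 0.411%.

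A closer look at the matching letters, made after they were seen, showed a shared core. The 10 letters GAAATCGAAA occurred exactly in 6 of the 9 members and with at most 1 mismatch in all 9, against 0.0487% and 1.38% of all windows. Such a match is a description of the letters and not a binding site. The counts over members are not of independent occurrences, since several of these windows are alike well beyond the core. The stretches below are shown because they carry the element that 9 separately annotated genes share. Each runs 5′ to 3′ on the gene's strand, from 40 bases before the core to 20 after it, with the core in capitals.
Ifi206, chr1:173491329-173491398, minus strand: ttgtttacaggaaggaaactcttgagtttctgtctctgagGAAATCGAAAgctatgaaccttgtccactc
Ifi213, chr1:173599316-173599385, minus strand: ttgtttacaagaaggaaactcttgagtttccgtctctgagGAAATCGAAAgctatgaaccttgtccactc
Ifi209, chr1:173630740-173630809, plus strand: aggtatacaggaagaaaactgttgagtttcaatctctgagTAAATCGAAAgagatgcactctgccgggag
Ifi208, chr1:173673567-173673636, plus strand: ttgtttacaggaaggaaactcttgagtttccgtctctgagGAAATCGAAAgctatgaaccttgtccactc
Ifi207, chr1:173741821-173741890, minus strand: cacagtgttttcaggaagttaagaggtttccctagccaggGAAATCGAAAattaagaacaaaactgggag
Mndal, chr1:173880194-173880263, minus strand: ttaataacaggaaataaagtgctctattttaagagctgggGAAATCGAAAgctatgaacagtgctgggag
Ifi211, chr1:173913054-173913123, minus strand: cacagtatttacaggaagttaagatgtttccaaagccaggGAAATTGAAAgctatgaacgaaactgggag
Ifi203, chr1:173942498-173942567, minus strand: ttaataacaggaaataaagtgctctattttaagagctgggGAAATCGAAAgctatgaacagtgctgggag
Ifi205, chr1:174031860-174031929, minus strand: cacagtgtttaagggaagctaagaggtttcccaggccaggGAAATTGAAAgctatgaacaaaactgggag

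With core positions counted from 1 at the 5′ end, Ifi209 carried the substitution G1T, which takes it out of the ISRE letters, and Ifi211 and Ifi205 carried C6T, which leaves them in. The stretches of Mndal and Ifi203 were identical over all 70 bases, and those of Ifi206, Ifi208 and Ifi213 began alike, while Ifi207, Ifi211 and Ifi205 shared another lead-in. The core began between 134 bases (Ifi205) and 35 bases (Ifi203) upstream of the annotated start. In the windows of Aim2 and Ifi202b, relatives in the same region, the closest letters differed from the core at 3 positions. Ifi214, another relative there, carried the exact core, so the core was not confined to the members.

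Without agonist, the members fell into genes that were already transcribed and genes that were nearly silent. Levels are compared between genes as FPKM, which is scaled by gene length. In WT control BMDMs Ifi207, whose protein carries both a pyrin and a HIN domain, was highest with a mean of 42.7 FPKM, followed by Ifi204 with 17.5, Ifi211 with 7.55, Mndal with 5.06, Ifi209 with 2.50 and Ifi203 with 2.31 (n = 2, each library's value being given further on). Ifi209 and Ifi203 overlapped there and the others in this order did not. Ifi205, Ifi206, Ifi213 and Ifi208 had means of only 0.156, 0.126, 0.0351 and 0.00451 FPKM. In WT control BMDCs the order began with Ifi207 (8.41 ± 1.90 FPKM), Ifi209 (6.81 ± 0.558) and Mndal (6.14 ± 1.13), whose libraries overlapped, and then Ifi204 (3.81 ± 0.723, SD, n = 3). Ifi208 (0.0387 FPKM) and Ifi213 (0.00759 FPKM) were again lowest, and Ifi206 (0.889) and Ifi205 (0.713) came next above them. From the highest to the lowest member, mean control levels spanned a ratio of 9483 in WT BMDMs and 1108 in WT BMDCs. These ratios are rough, since the lowest member was Ifi208 with 1 count over the 2 WT BMDM libraries and Ifi213 with 3 counts over the 3 WT BMDC libraries.

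DMXAA brought the 10 genes much closer together. The same ratio of highest to lowest member was 9.55 in WT BMDMs, 13.2 in CRE BMDMs, 21.9 in WT BMDCs and 19.6 in CRE BMDCs. In WT BMDMs the order was Ifi209 (609 FPKM), Ifi204 (597), Ifi211 (498), Mndal (323), Ifi207 (299), Ifi205 (247), Ifi206 (245), Ifi203 (179), Ifi208 (106) and Ifi213 (63.8), and within it only Ifi211 and Mndal were neighbours without overlap. In WT BMDCs Ifi209 (258 FPKM), Ifi211 (248) and Ifi204 (240) led, and Ifi208 (25.8) and Ifi213 (11.8) came last without overlapping their neighbours. Summed over the cluster, FPKM went from 78.0 ± 9.54 to 3168 ± 925 in WT BMDMs, from 85.8 ± 2.46 to 1607 ± 13.8 in CRE BMDMs (SD, n = 2), from 30.2 ± 4.91 to 1367 ± 86.7 in WT BMDCs and from 40.3 ± 17.8 to 1299 ± 129 in CRE BMDCs (SD, n = 3). As a share of all counts the cluster went from 0.0298% to 0.816% in WT BMDMs and from 0.0118% to 0.406% in WT BMDCs. Ifi207 made up 54.8% of the summed FPKM in WT control BMDMs and 9.52% under DMXAA, whereas the share of Ifi209 went from 3.19% to 19.1%.

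**Figure D1:**
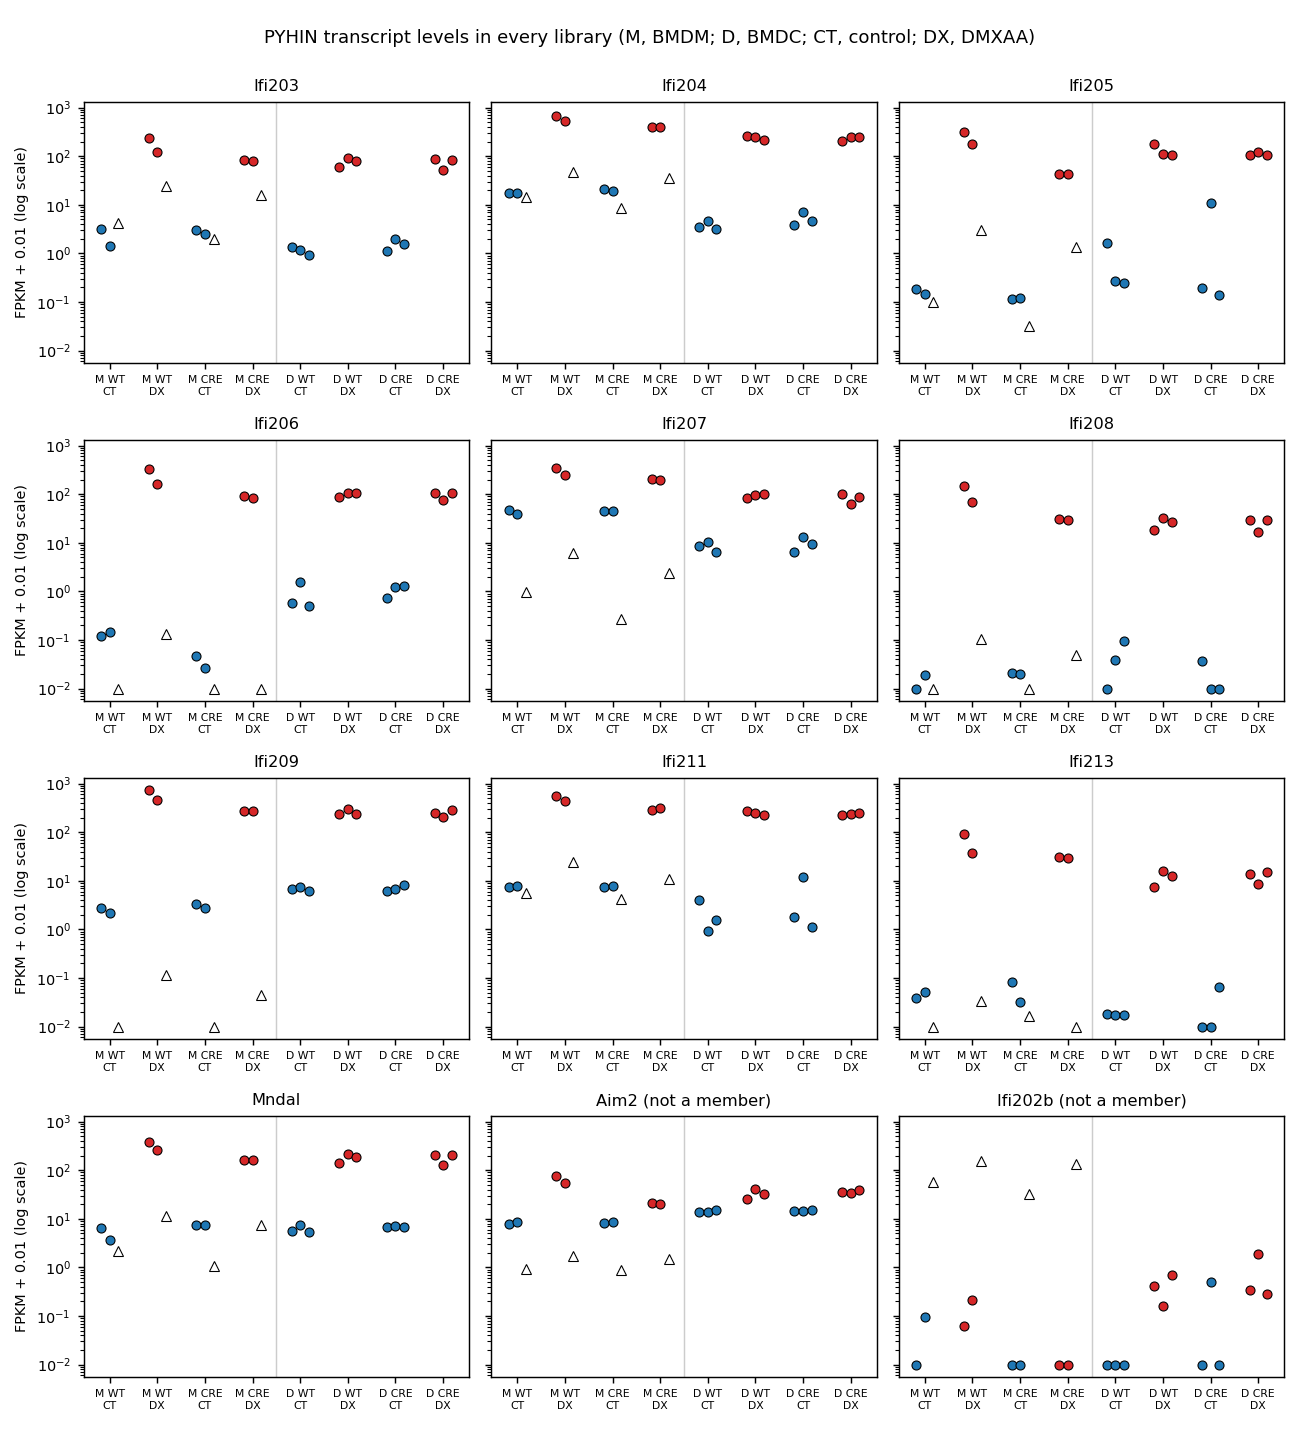
FPKM plus 0.01 (log axis) of the 10 members and of Aim2 and Ifi202b in each of the 24 libraries, blue for control and red for DMXAA, with BMDM libraries numbered 3 as open triangles. With the triangles left aside, all red points of a member lie above all of its blue points in the same cell type, and the triangles of Ifi206, Ifi208, Ifi209 and Ifi213 stay at or below 0.121 FPKM.

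Values in each library are given next, in the order of library numbers and first for the members tied to STING. Ifi204 stood at 17.6 and 17.4 FPKM in WT control BMDMs, at 666 and 529 under DMXAA, at 21.3 and 19.6 in CRE controls and at 392 and 395 in CRE cells under DMXAA. In BMDCs it stood at 3.57, 4.62 and 3.23 in WT controls, 259, 249.8 and 212 under DMXAA, 3.75, 7.02 and 4.73 in CRE controls and 205, 245 and 247 under DMXAA. Treated libraries thus lay far above all controls, the 2 CRE BMDM libraries lay below both WT ones, and the BMDC labels overlapped. Ifi207 had the highest controls and the smallest relative rise, with 46.9 and 38.6 FPKM in WT control BMDMs against 351 and 248 under DMXAA, and 44.6 and 44.2 in CRE controls against 209 and 192.

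Among the genes with intermediate controls, Ifi209 stood at 2.79 and 2.21 FPKM in WT control BMDMs and at 749 and 469 under DMXAA. In CRE BMDMs it stood at 3.41 and 2.71 and then at 279 and 277. In BMDCs its controls were higher, at 6.90, 7.32 and 6.22 in WT and 6.23, 6.84 and 8.14 in CRE libraries, and its treated levels were 235, 298 and 241 in WT and 248, 207 and 285 in CRE. The treated BMDC libraries of both labels overlapped the CRE BMDMs and lay below both WT BMDMs. Ifi211 stood at 7.46 and 7.65 FPKM in WT control BMDMs against 566 and 429.9 under DMXAA, and in CRE BMDMs at 7.49 and 7.65 against 291 and 308. Mndal, named for its likeness to the human nuclear antigen MNDA, stood at 6.49 and 3.62 FPKM in WT control BMDMs against 382 and 265 under DMXAA, and in CRE BMDMs at 7.52 and 7.32 against 163 and 159. Ifi203 ranged from 1.39 to 3.23 FPKM over the 4 control BMDM libraries and from 78.1 to 233 over the 4 treated ones. In all 3 genes the treated CRE BMDM libraries lay below the treated WT ones, and the control libraries of the labels overlapped in Ifi211 and Ifi203 but not in Mndal, whose CRE controls were above.

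The nearly silent genes went from a handful of reads to high levels. Ifi205, which encodes the PYHIN protein p205, stood at 0.176 and 0.136 FPKM in WT control BMDMs and at 313 and 181 under DMXAA, and in CRE BMDMs at 0.107 and 0.109 against 42.7 and 43.3. In BMDCs its controls were uneven, with 1.65, 0.256 and 0.232 FPKM in WT and 0.187, 10.96 and 0.128 in CRE libraries, against 174, 113 and 105 and then 105, 124 and 108 under DMXAA. The high control value belonged to CRE library number 2, which also carried the neutrophil markers, and whether these had a part in it was not tested. Ifi211 shared this pattern in BMDC controls, with 1.75, 11.8 and 1.11 FPKM in the CRE libraries. Ifi206 stood at 0.112 and 0.14 FPKM in WT control BMDMs against 326 and 164 under DMXAA, and in CRE BMDMs at 0.0366 and 0.0165 against 93.5 and 85.2. Ifi208 was at 0 and 0.00902 FPKM in WT control BMDMs against 145 and 67.6 under DMXAA, with 30.8 and 29.0 in treated CRE libraries. Ifi213 reached 90.9 and 36.7 FPKM in treated WT and 30.4 and 29.9 in treated CRE BMDMs, and stayed between 7.45 and 15.6 FPKM in the 6 treated BMDC libraries.

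Under DMXAA all 10 members rose in each of the 4 settings formed by cell type and label. Tests used the quasi-likelihood test of edgeR on counts, without pairing libraries by number. A gene is called where its Benjamini-Hochberg adjusted p over all genes tested is under 0.05. Against this count, the share of all genes tested that were called higher was 17% in WT BMDCs, 14% in CRE BMDCs, 18.4% in WT BMDMs and 7.28% in CRE BMDMs. The median log2 fold change of the members was 6.42, 5.52, 6.99 and 5.88 in these settings, beside medians over all genes tested of 0.01, -0.01, -0.08 and -0.01. In every setting the treated and control libraries of all 10 members did not overlap in FPKM, as held for 25.4%, 18.6%, 33.1% and 39.8% of all genes tested in that direction. With the BMDM libraries numbered 3 put back into their groups, edgeR called 0 members and 0 of all 12379 genes tested in either BMDM response, while the members' median log2 fold changes were 6.82 in WT and 5.74 in CRE cells. All 10 passed the filter on low values, but on control libraries alone 7 would have passed in BMDCs and 6 in BMDMs, so for the rest the treated level itself let them be tested.

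The sizes differed greatly between members. Ifi207 rose least, with a log2 fold change of 2.70 (SE 0.19, adjusted p = 0.00014, edgeR) in WT BMDMs, 2.15 (SE 0.19) in CRE BMDMs, 3.44 (SE 0.30) in WT BMDCs and 3.10 (SE 0.29) in CRE BMDCs. Ifi204 rose by 4.98 (SE 0.16) and 4.25 (SE 0.15) in WT and CRE BMDMs and by 5.95 (SE 0.27) and 5.47 (SE 0.27) in WT and CRE BMDCs. Mndal and Ifi203 rose by 5.89 (SE 0.34) and 6.16 (SE 0.51) in WT BMDMs and by 4.86 (SE 0.27) and 6.05 (SE 0.33) in WT BMDCs. Without WT control library number 1 the Ifi203 value in BMDMs was 6.88. Ifi209 rose by 7.82 (SE 0.31) in WT BMDMs, 6.48 (SE 0.30) in CRE BMDMs and 5.22 (SE 0.21) and 5.10 (SE 0.20) in WT and CRE BMDCs.

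Ifi205 showed the widest errors among the members in BMDCs. Its log2 fold change was 10.50 (SE 0.37) in WT BMDMs and 8.59 (SE 0.37) in CRE BMDMs, but 7.51 (SE 1.57, adjusted p = 0.00371, edgeR) in WT BMDCs and 4.88 (SE 1.38, adjusted p = 0.0226, edgeR) in CRE BMDCs. Without CRE control library number 2, the one with neutrophil markers, the CRE value was 9.42, and without CRE control library number 1 it was 4.31 with an adjusted p of 0.0538, at which the call was lost. Without WT control library number 1 the WT value was 9.03. Ifi211 behaved likewise, with 6.80 (SE 0.90) in WT BMDCs, or 7.60 without WT control library number 1, and with 5.58 (SE 0.85) in CRE BMDCs, or 7.34 without CRE control library number 2. In BMDMs Ifi211 rose by 5.93 (SE 0.18) in WT and 5.28 (SE 0.17) in CRE cells. Pairing each control with the DMXAA library of its number within a label gave 6.78 for Ifi205 in CRE BMDCs (adjusted p = 0.00108, edgeR).

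For genes with hardly any control reads the fold is best read from counts. Ifi208 held 13757 counts in the 2 treated WT BMDM libraries and 1 in the 2 controls, a ratio of 22176 with a 95% counting interval from 3979 to 875966. In CRE BMDMs it held 5154 counts against 2, a ratio of 2968 (821 to 24511), and in CRE BMDCs 5945 against 3, a ratio of 2573 (880 to 12480). Ifi206 held 8946 counts against 3 in CRE BMDMs, a ratio of 3434 (1175 to 16655). In WT BMDCs Ifi213 held 3628 counts against 3, a ratio of 1567 (536 to 7600). These exact intervals cover counting error only and not the spread between libraries. Ifi206 rose in WT BMDMs by a log2 fold change of 10.78 (SE 0.48), and in WT and CRE BMDCs, where its controls held more reads, by 6.79 (SE 0.46) and 6.45 (SE 0.45). The WT BMDC value was 7.52 without control library number 2.

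**Figure D2:**
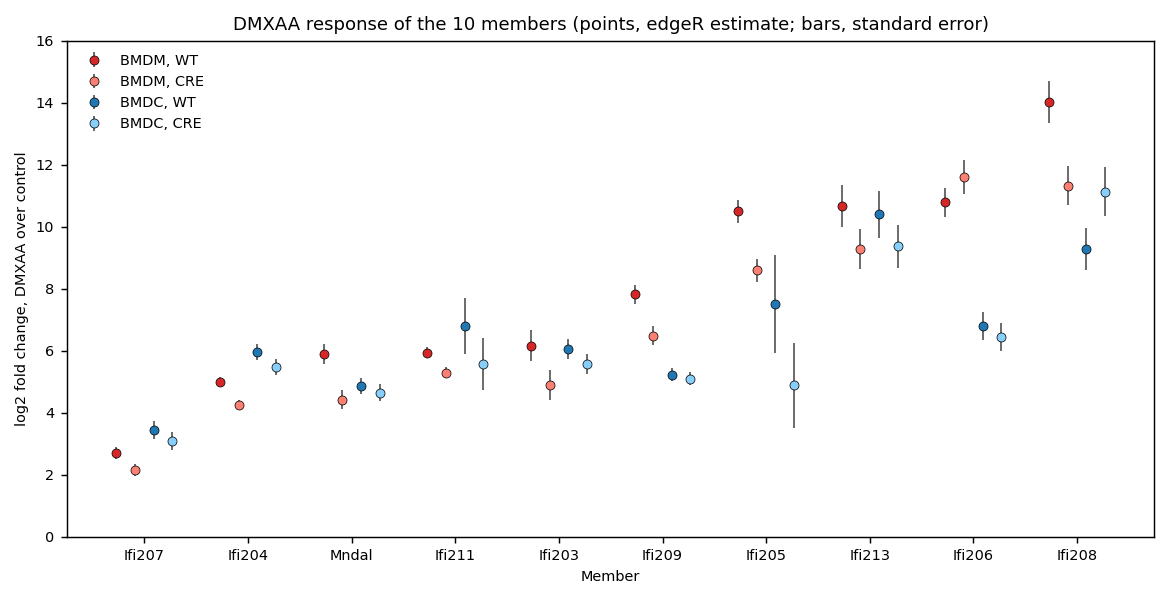
Log2 fold change of DMXAA over control for each member in the 4 settings, as edgeR estimates with bars of 1 standard error. Ifi207 sits lowest in all 4 settings, between 2.15 and 3.44, and Ifi208 reaches 14.02 in WT BMDMs, where its control libraries held 1 count in all.

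To see whether the label changed these levels, CRE and WT libraries were compared within each treatment. In DMXAA-treated BMDMs all 10 members had lower estimates in CRE than in WT cells, and 6 of them were called lower, beside 9.99% of all genes tested. The called members were Ifi205 with a log2 difference of -2.47 (95% interval -3.06 to -1.88, adjusted p = 0.00199, edgeR), Ifi208 with -1.78 (adjusted p = 0.0151), Ifi206 with -1.40 (adjusted p = 0.0209), Ifi209 with -1.08 (adjusted p = 0.0227), Ifi211 with -0.68 (adjusted p = 0.0211) and Ifi204 with -0.55 (adjusted p = 0.0331). The other 4 had an unadjusted p under 0.05 only, as 33.8% of all genes had one, namely Ifi203 with -1.08 (interval -2.05 to -0.11, adjusted p = 0.117), Ifi213 with -1.03 (interval -2.01 to -0.05, adjusted p = 0.132), Mndal with -0.95 (interval -1.60 to -0.30, adjusted p = 0.0533) and Ifi207 with -0.53 (interval -0.95 to -0.10, adjusted p = 0.0888). As a share of the WT mean FPKM, CRE levels ranged from 17.4% for Ifi205 to 67.1% for Ifi207 with a median of 46.4%. On CPM the shares ran from 21.5% to 82.5% with a median of 57.8%. For all 10 members both CRE libraries lay below both WT libraries in FPKM, as did 33.1% of all genes tested.

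The number of calls moved with the libraries used. The 2 treated WT BMDM libraries differed between themselves, number 1 over number 2 being 1.26 to 2.48 in FPKM over the members (median 1.66), whereas the CRE pair stood at 0.946 to 1.10. Number 2 was the treated WT library with more fibroblast transcripts, and their part was not tested. Leaving out treated WT library number 1 left 4 members called (Ifi205, Ifi206, Ifi208 and Ifi211), with Ifi208 at -1.14, and leaving out treated WT library number 2 left 9, among 1517 and 2497 genes called in all against 2227. The members' median was -0.63 and -1.41 in these refits. Leaving out treated CRE library number 1 or number 2 left only Ifi205 called, among 316 and 313 genes, while the members' median stayed at -1.08 and -1.02. In the remaining refits, which left out 1 control library, calls changed while values hardly moved. Without control CRE library number 1 or number 2, Ifi204 at -0.58 and Ifi211 at -0.70 lost their calls. Without control WT library number 1 or number 2, Ifi203 at -1.10 and Mndal at -0.98 gained one. With both WT libraries numbered 2 left out, all 10 members were called lower among 2946 genes called lower of 11569, but the spread then came from the CRE pairs alone and the lone WT samples were assumed to vary like them. With all 3 BMDM libraries of each group, edgeR called 0 members and 0 of 12379 genes, with a median of -1.10 over the members. In a bulk library, fewer responding cells and less RNA per cell cannot be told apart.

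In control BMDMs 0 members were called by edgeR and 0 by DESeq2, with 1 at an unadjusted p under 0.05 in edgeR, where 0.0432% of all genes were called and 6.85% had such a p. That member was Ifi206, with a log2 difference of -2.22 between libraries near 0. The change in response between labels, tested as an interaction, was called for 0 members in edgeR, and 5 had an unadjusted p under 0.05, as had 20.3% of all genes. Those 5 were Mndal with -1.47 (adjusted p = 0.0975), Ifi209 with -1.34 (adjusted p = 0.0901), Ifi204 with -0.73 (adjusted p = 0.0928), Ifi205 with -1.91 (adjusted p = 0.111) and Ifi211 with -0.65 (adjusted p = 0.151). Of all genes tested 3.66%, or 424 of 11569, were called in this interaction. Both counts moved with the fit. DESeq2 called 4 members (Ifi204, Ifi205, Ifi209 and Mndal) among 1195 genes. Pairing by number within a label gave 5 members, these 4 and Ifi203, among 1702 genes, and leaving out both WT libraries numbered 2 gave 8 among 5334.

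In BMDCs the labels did not separate the members. Under DMXAA 0 members were called and the unadjusted p was under 0.05 for 0 of them, beside 0% of all genes called in edgeR and 0.891% below that unadjusted threshold. The log2 differences lay between -0.21 for Ifi205 and 0.09 for Ifi213. Their intervals were narrow for Ifi209 (-0.43 to 0.32), Ifi204 (-0.52 to 0.44) and Mndal (-0.51 to 0.48), so changes of 2-fold in these genes lie outside them, and wide for Ifi211 (-1.57 to 1.46) and Ifi205 (-2.77 to 2.35). CRE levels were 85.6% to 106% of the WT mean FPKM, with a median of 96.1%. In 0 of the 10 members did the CRE libraries lie wholly below the WT ones, against 1.22% of all genes. In controls and in the interaction 0 members were called either, with 0 at an unadjusted p under 0.05 (0.816% and 0.495% of all genes) and with differences from -1.86 to 2.42 and from -2.63 to 1.85. DESeq2 called 0 members in these 3 comparisons, where it gave no adjusted p for Ifi205 and Ifi211. It gave none for them in the WT and CRE BMDC responses to DMXAA either. There it called the other 8 members higher, among 2364 and 2026 of 12126 genes called higher. Whether the BMDM and BMDC label differences differ from each other was not tested.

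**Figure D3:**
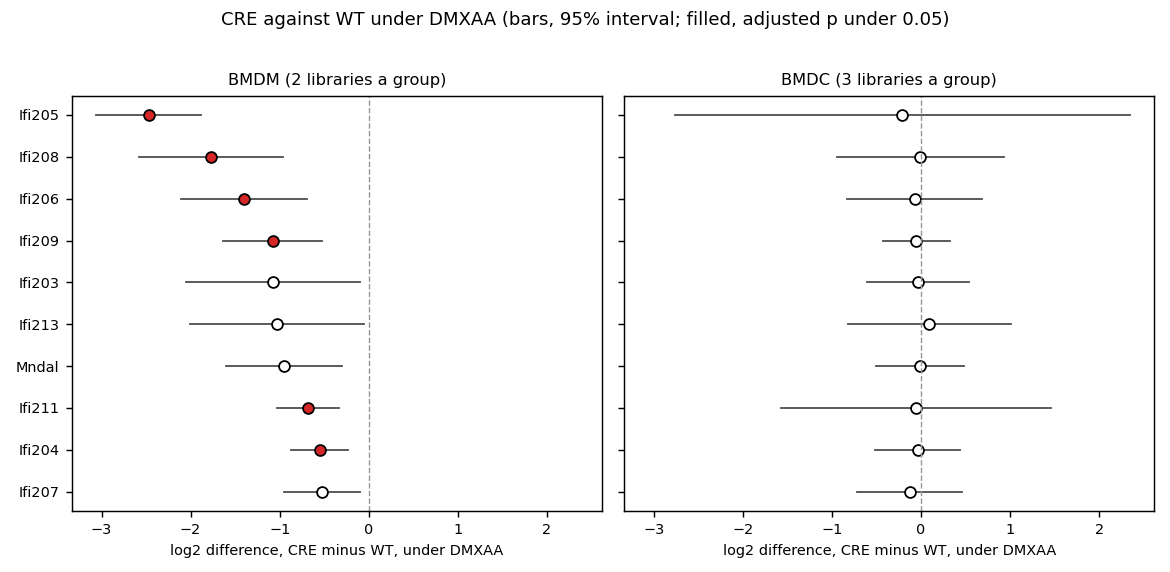
Log2 difference of CRE minus WT under DMXAA for each member, in BMDMs at left and BMDCs at right, with 95% intervals and filled points for calls. All 10 BMDM intervals, which are not adjusted for the number of genes, lie below 0, though only 6 members were called. The BMDM estimates run from -2.47 for Ifi205 to -0.53 for Ifi207, and all 10 BMDC intervals include 0.

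Within the treated BMDCs, 1 library of each label stood apart together in the members. WT number 1 and CRE number 2 were both below the other 4 treated libraries in 7 members, namely Ifi203, Ifi206, Ifi207, Ifi208, Ifi209, Ifi213 and Mndal. The share of all genes tested with this order was not computed, so the order is not shown to be particular to the members. For Mndal they held 143 and 126 FPKM against 188 to 214 in the others. In Ifi205 they were both above the others, with 174 and 124 FPKM against 105 to 113, and in Ifi204 and Ifi211 they overlapped them. Across all genes tested, the deviations of these libraries from their group means correlated at 0.567 under DMXAA and 0.418 in controls. They were not alone in this, since WT number 2 with CRE number 3 gave 0.491 and 0.429, and WT number 3 with CRE number 1 gave 0.648 and 0.312. Each WT library thus correlated most with a CRE library of another number, which was seen only after the data were examined. Deviations from a group mean cancel out within the group, so each WT library must correlate positively with some CRE library. Positive values alone therefore do not show a match across labels. The labels give no such match, and the fits that compared CRE with WT used none. Of the pair, only CRE number 2 carried raised neutrophil markers, and the part of cell composition was not tested.

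BMDMs and BMDCs differed in the resting levels of 5 members. In WT controls, Ifi204 was lower in BMDCs than in BMDMs by a log2 difference of -2.26 (SE 0.22, adjusted p = 2.2e-06, edgeR), Ifi207 by -2.40 (SE 0.27) and Ifi203 by -1.07 (SE 0.36, adjusted p = 0.0345). Ifi209 was higher in BMDCs by 1.39 (SE 0.23, adjusted p = 0.000284) and Ifi206 by 2.74 (SE 0.55, adjusted p = 0.00153). Of all genes, 13.1% were called higher and 15.4% lower in BMDCs. The Ifi203 difference was -0.32 without WT control BMDM number 1. Its call was also lost without WT control BMDC number 2 (-1.04, adjusted p = 0.085, edgeR) or number 3 (-0.90, adjusted p = 0.125, edgeR). Ifi203 was called in 21 of 29 alternatives. Ifi206 stood at 2.05 without WT control BMDC number 2. In the WT control BMDMs Ifi206 held only 7 and 9 counts. It was called in 27 of 29 alternatives, but limma on log2(FPKM + 1) gave 0.70 (adjusted p = 0.0661) and did not call it. Nor did limma call Ifi203. The 5 members not called were Ifi205, Ifi208, Ifi211, Ifi213 and Mndal, the last with 0.22 (interval -0.35 to 0.80).

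The rise under DMXAA also differed by cell type for a pair of genes. In WT cells the response of Ifi209 was smaller in BMDCs by -2.58 on the log2 scale (SE 0.31, adjusted p = 0.000303, edgeR) and that of Ifi206 by -3.97 (SE 0.66, adjusted p = 0.0041), where 1.73% of all genes had a smaller response called. For Ifi206 the value was -3.28 without WT control BMDC number 2, and its WT BMDM controls held only 7 and 9 counts. Both genes are the ones whose controls were higher in BMDCs, and these comparisons share the control libraries. DESeq2 called 4 members among 738 genes, Ifi206, Ifi208 and Ifi209 with a smaller and Ifi204 with a larger response in BMDCs, and limma on log2(FPKM + 1) called 4 among 527, Ifi206, Ifi208, Ifi209 and Ifi213. Treated levels in WT BMDMs were 1.78 to 5.41 times those in WT BMDCs, with a median of 2.40. With all 3 BMDM libraries of each group, edgeR called 0 members in either cell type comparison, beside 1169 of 13732 genes between the controls and 0 in the interaction.

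The BMDM libraries numbered 3, which lacked leukocyte transcripts, held a different set of members. Ifi204 stood at 14.5 FPKM in WT control and 48.0 in WT treated cells, and at 8.72 and 36.5 in the CRE pair. Ifi203 went from 4.27 to 23.9 FPKM in WT and from 1.93 to 15.7 in CRE libraries, and Ifi211 from 5.73 to 23.9 and from 4.13 to 10.8. Mndal, Ifi207 and Ifi205 were detected at up to 11.3, 6.23 and 2.97 FPKM. Ifi206, Ifi208, Ifi209 and Ifi213, which rose so far in the other BMDMs, held at most 12 counts in any of these 4 libraries. Conversely Ifi202b, a relative without a pyrin domain, stood at 33.2 to 158 FPKM in these libraries and at no more than 1.86 FPKM in any of the other 20.

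Sequence shared among members limits how far their counts can be kept apart. Of the distinct 100-base words in the GENCODE M21 transcripts of Ifi211, 56.9% also occur in other PYHIN genes, 37.2% in Ifi205 and 19.6% in Ifi204. For Ifi209 the share was 16.9%, held with Ifi214, for Ifi205 15%, for Ifi204 10.7% and for Ifi206 7.74%, or 13.1% with genes outside the family included, whereas Ifi207, Ifi203, Ifi213, Mndal and Ifi208 shared at most 5.92% with the family. How reads with several matches were counted is not given in the sources used here, so levels of Ifi211 above all, and of Ifi205 and Ifi204 with it, are uncertain. Mndal overlaps Ifi211 and Ifi203 on the same strand, which adds to this.

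Neighbouring genes of other families mostly stayed silent. Within 500 kb of the cluster's ends, all 10 members and all 4 other PYHIN genes in the table (Aim2, Ifi214, Ifi202b and Ifi203-ps) reached 1 FPKM in at least 1 of the 20 libraries, against 6 of 43 other genes. The highest of those 6 was Gm44339, at up to 22.1 FPKM, which lies inside Ifi209. Of the other PYHIN genes, Aim2 had high controls and a modest rise. It stood at 7.93 and 8.63 FPKM in WT control BMDMs against 75.5 and 54.9 under DMXAA, and in CRE BMDMs at 8.32 and 8.75 against 20.9 and 20.1. Its log2 fold change was 2.86 and 1.24 in WT and CRE BMDMs and 1.18 and 1.26 in WT and CRE BMDCs, all called. Aim2 was lower in treated CRE than WT BMDMs by -1.62 (called), and its interaction with the label was called, at -1.62 (adjusted p = 0.0222, edgeR). Ifi214 had 0 counts in the WT and in the CRE control BMDMs. Against a floor of 3 counts set for each control group, its treated level was 471 times higher in WT and 92.5 times in CRE BMDMs. From the 0 counts themselves, the lower limits of the 95% counting intervals were 382 and 74.7.

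**Figure D4:**
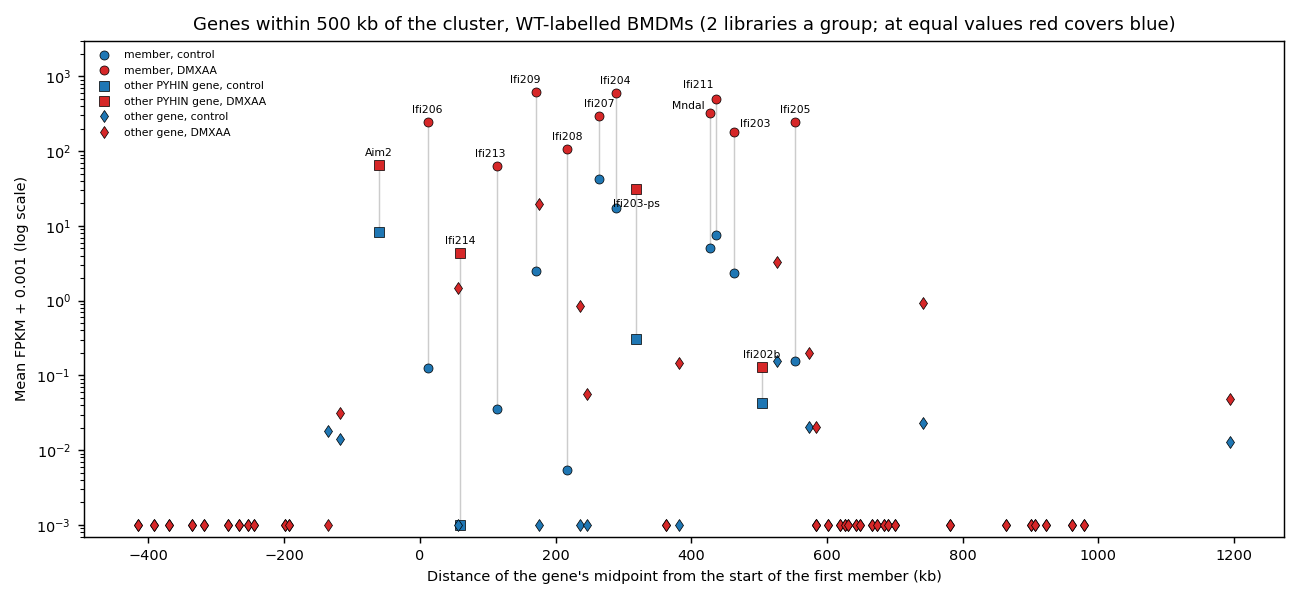
Mean FPKM plus 0.001 (log axis) of every gene within 500 kb of the cluster in WT-labelled BMDMs, blue for control and red for DMXAA (n = 2), against the distance of the gene's midpoint from the start of the first member in kb. The red points of the 10 members stand between 63.8 and 609 FPKM, while most other genes lie at the bottom of the axis in both colours.

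The wider pathway was read from lists of interferon-stimulated genes and of DNA sensing and inflammasome genes. Both lists were chosen with earlier results of these data known. Of 32 interferon-stimulated genes, 32 were called higher in each of the 4 settings, with median log2 fold changes of 5.98 in WT BMDCs, 5.77 in CRE BMDCs, 6.49 in WT BMDMs and 5.74 in CRE BMDMs. Among them Isg15, a ubiquitin-like modifier, rose by 8.58 in WT BMDMs. Of 25 DNA sensing and inflammasome genes, 11 were called higher and 3 lower of 23 tested in WT BMDCs, 11 and 1 in CRE BMDCs, 13 and 4 of 22 tested in WT BMDMs and 7 and 1 in CRE BMDMs. Over all genes tested, 17%, 14%, 18.4% and 7.28% were called higher in these settings. Called lower were 1848 and 1382 of 12126 genes in WT and CRE BMDCs, and 2397 and 315 of 11569 in WT and CRE BMDMs. Zbp1, a sensor of Z-form nucleic acids, rose by 7.42 and Casp1, the inflammasome protease, by 3.19 in WT BMDMs, whereas Pycard, which joins AIM2 to caspase-1, stood at 0.12 (adjusted p = 0.721, edgeR). Mb21d1, which encodes the DNA sensor cGAS, rose by 1.25 in WT BMDMs and stood at 1.03 (adjusted p = 0.106) in CRE BMDMs. Between treated CRE and WT BMDMs, 24 of the 32 interferon-stimulated genes were called lower, beside 9.99% of all genes tested. The median over the 32 was -1.19, beside the members' median of -1.05 and a median of 0.01 over all genes tested.

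Across the 20 libraries, Pearson's r of log2(CPM + 1) between members ranged from 0.713 to 0.997 with a median of 0.952 over the 45 pairs, as a description of libraries that share treatment and depth. Among 13358 other genes tested, those whose pattern was most like the mean of the members were Ifit1bl1 (r = 0.996), Igtp (0.996), Ifit2 (0.994), Iigp1 (0.993) and Tgtp2 (0.993). Those most like Ifi204 alone were Slfn5 (r = 0.995), Phf11d (0.990), Rtp4 (0.989), Oasl2 (0.985) and Tdrd7 (0.984).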

How the data were processed

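Counts and FPKM for 24 polyA libraries were read from 1 deposited table. Per the labels' processing notes, the authors used CASAVA 1.8, fastp, HISAT2 2.0.5, featureCounts 1.5.0-p3 and DESeq2 1.20.0 on mm10. The deposited counts are raw counts of reads per gene. The deposited FPKM were scaled by the authors to gene length and to a library size that was 0.687 to 1.33 times the sum of counts, so FPKM differences between groups also carry that scaling. The table's coordinates match GENCODE M21 (GRCm38). Treatment of multi-mapped reads and strand is not given in the sources used here. All 48 columns of single libraries were matched to a library, with 0 left unmatched. The columns of 12 comparisons made by the authors (fold changes and p-values) were not used.

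Groups came from the labels. Genes with FPKM of at least 1 in at least 3 BMDC libraries, or at least 2 of the 8 BMDM libraries or of the 20 libraries together, were tested with edgeR 4.0.16 (R 4.3.3) using TMM scaling and the quasi-likelihood test, two-sided, in fits of 12 BMDC libraries (12126 genes), 8 BMDM libraries (11569 genes) and 20 libraries (13368 genes). The script was tested on simulated data. Precision was limited by library spread, with a biological coefficient of variation of 29.1% in BMDCs and 24.5% in BMDMs. DESeq2 1.42.0 and limma 3.58.1 served as alternatives. Genes named are the 10 members, the other PYHIN genes, genes within 500 kb, listed genes picked by name and the 5 most correlated genes. The members, the gene lists, the setting apart of the BMDM libraries numbered 3 and the motifs were chosen with earlier results of these data known. Deviations from group means correlated between control and DMXAA libraries of the same number and label in BMDCs (0.37 or more in 6 of 6 pairs). The labels do not say what the numbers mark, so the main fits were unpaired and fits paired by number served as alternatives. Across labels, libraries of equal number did not correlate in this way (down to -0.495). Some libraries of unequal number did, but deviations that cancel within a group force some positive values, and no fit used such a match. In BMDMs that correlation was 0.64 in the WT and 0.033 in the CRE label. The 70-base stretches were cut from RefSeq promoter windows, and the GAAATCGAAA core was picked after the matches were seen.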

Additional observations from a re-analysis of the deposited data

Results flagged for a closer look

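The responses of Ifi209 and Ifi206 differed between cell types in WT cells, by -2.58 and -3.97 on the log2 scale for BMDCs relative to BMDMs in edgeR's interaction test. In 3 of 3 WT BMDC and 2 of 2 WT BMDM pairs of equal number the gene was still higher under DMXAA.

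The BMDM libraries numbered 3 entered none of the report's comparisons apart from the alternative with all 3 libraries of a group, and with 1 library a group their DMXAA over control ratios of FPKM have counting intervals (95%) only, which leave out the spread between libraries. Ifi203 had a ratio of 5.61 (5.17 to 6.09) in the WT and 8.15 (7.19 to 9.26) in the CRE pair. For Ifi204 the ratios were 3.32 (3.11 to 3.54) and 4.18 (3.84 to 4.55), for Ifi205 32.7 (17.0 to 72.2) and 61.0 (16.6 to 509, from 2 control counts) and for Ifi207 6.33 (4.99 to 8.12) and 8.93 (5.57 to 15.2). Ifi211 had ratios of 4.18 (3.63 to 4.82) and 2.62 (2.19 to 3.17), and Mndal of 5.32 (4.54 to 6.27) and 6.75 (5.36 to 8.59). Ifi202b, which the report's comparisons do not use, had ratios of 2.81 (2.68 to 2.95) and 4.03 (3.79 to 4.30). No test for a single outlying library was run, since every group had 3 libraries or fewer.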

How the results depend on the processing

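Calls of the members' rise under DMXAA held in nearly all alternatives. Of 276 counts of members called under alternatives, 257 stayed within 1.5 times the main count, and of 1441 values of single members 1344 kept direction and call. The 276 pool all comparisons, also those between labels in BMDCs, where a main count of 0 that stayed 0 was taken as the same. In treated CRE against WT BMDMs single calls were less stable, from Ifi205 called in 19 of 20 alternatives to Ifi204 in 10 of 20. With all 3 BMDM libraries of each group, 0 members were called in the WT and CRE BMDM responses, in treated CRE against WT BMDMs, in BMDCs against BMDMs and in the cell type interaction. In treated CRE against WT BMDMs, DESeq2 called 10 and leaving out both WT libraries numbered 2 gave 10. Leaving out 1 library gave 1 to 9. In the BMDM interaction DESeq2 called 4, limma 1, voom with label weights 1, the fit without both WT libraries numbered 2 called 8, the replicate block 1 and the replicate block within a label 5, and leaving out 1 library gave 0 to 5. In the cell type interaction DESeq2 called 4 and limma 4, and leaving out 1 library gave 2 to 3. Between WT control cell types leaving out 1 library gave 4 to 7, and Mndal, at 0.22, ranged from -0.10 (without WT control BMDM number 2) to 0.72. The causes were not tested. All-gene counts are not set beside these counts of members here, so the latter describe stability only. The replicate block changed no other count of members by over 1.5 times. Over all genes, the block within a label raised the calls in the BMDC responses from 3904 to 5911 (WT) and from 3084 to 5181 (CRE). Scaling by library totals alone shifted the median of all genes by -0.59 in the WT BMDM response, -0.24 in the CRE BMDM response, -0.36 and -0.34 in the WT and CRE BMDC responses and 0.24 in treated CRE against WT BMDMs. With those totals the calls over all genes, higher and lower, were 1349 and 3754 against 2056 and 1848 in the WT BMDC response, 1190 and 3322 against 1702 and 1382 in the CRE BMDC response, 1400 and 5449 against 2134 and 2397 in the WT BMDM response, 683 and 885 against 842 and 315 in the CRE BMDM response and 2073 and 850 against 1071 and 1156 in treated CRE against WT BMDMs. No member changed direction with them. Voom, library totals and the fits without libraries numbered 1 or 2 as a pair were added after the data were seen.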
